A study of Rattus norvegicus with 48 samples.

Results

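The 24 h response of the ethanol-adapted liver to partial hepatectomy (PHx) was described from 12 of the 48 rats of the series. These were the 6 untreated and saline-injected EtOH-fed animals at 24 h after PHx and the 6 at 0 h, taken by the diet, treatment and time in their labels. All 143 miRNAs with deposited values were compared, with the treatment as a covariate. The study asked how chronic ethanol intake alters the miRNAs of regenerating liver. Livers were assayed with the NanoString nCounter panel, in which coloured probes are counted 1 by 1, each naming its miRNA, without a PCR step.

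All animals were male Sprague-Dawley rats, 8 to 14 weeks of age, pair-fed a Lieber-DeCarli liquid diet for 6 to 8 weeks. In the EtOH groups 36% of calories came from ethanol, and in the CHO groups from carbohydrate in its place. PHx removed 70% of the liver, so that the 24 h samples are the lobes left in place. The 12 animals fall into 4 groups of 3, namely EtOH.0hr.untreated, EtOH.0hr.saline, EtOH.24hr.untreated and EtOH.24hr.saline. Saline was given into the peritoneal cavity, 1 mL at a time, 72 h before surgery and again right after PHx. In the saline animals, time after PHx and the second injection therefore cannot be told apart. Further animals served for comparison, 12 CHO-fed rats of the same treatments and times and 6 EtOH-fed rats given AM21, an antisense oligonucleotide against miR-21, at 7.5 mg/kg on the same schedule. RNA came from frozen whole liver, and the sources used here do not say whether a 0 h liver belonged to a rat also sampled later.

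A miRNA is a short RNA that guides the Argonaute protein to messenger RNAs, mostly through the seed, bases 2 to 8 from its 5′ end, and lowers their translation or stability. miRNAs with the same seed form a family and share many predicted targets, and miRNAs encoded close together are often cut from one transcript. After PHx the remaining hepatocytes leave quiescence and enter the cell cycle, and chronic ethanol delays this step in rodents.

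The mature sequences below are those of miRNAs on which the results turn, with relatives that share a seed or a hairpin. They were taken from RefSeq on the rat build GRCr8, written 5′ to 3′ with the seed in capitals. For 68 of the 103 miRNAs matched to RefSeq the deposited name gives no arm, and the main arm of the nomenclature was taken. Of the miRNAs called below, miR-99a and miR-150 were not matched, so no sequence is given for them.
miR-19b: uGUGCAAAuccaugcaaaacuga
miR-19a: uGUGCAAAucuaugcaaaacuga
miR-34a: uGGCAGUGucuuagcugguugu
miR-223: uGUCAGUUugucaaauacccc
miR-23b: aUCACAUUgccagggauuacc
miR-23a: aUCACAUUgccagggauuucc
miR-27b: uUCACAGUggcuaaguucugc
miR-27a: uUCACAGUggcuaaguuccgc
miR-199a-3p: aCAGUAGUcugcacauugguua
miR-199a-5p: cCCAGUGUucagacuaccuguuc
miR-340-3p: uCCGUCUCaguuacuuuauagcc
miR-340-5p: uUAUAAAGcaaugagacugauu
miR-21: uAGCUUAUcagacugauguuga
The first pair shares a seed and was higher at 24 h in both members' means, the means of the miR-23 and miR-27 pairs were lower, and the miR-199a and miR-340 arms come from 1 hairpin each, of which only the 3p arm was called. miR-23b and miR-27b lie with miR-24 at chr17:1818672-1819425 on the minus strand, and miR-23a and miR-27a lie with a second copy of miR-24 at chr19:40859481-40859798, also on the minus strand. miR-17-5p, miR-19a and miR-19b lie at chr15:98587861-98588508 on the plus strand, and miR-19b and miR-17-5p have further copies on the X chromosome at chrX:137343070-137343637. A mature miRNA with 2 copies is counted as 1 value. The relatives differ in few bases, and how far each probe separates them was not tested.

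The 12 animals had total counts of 92245 to 205241, with a median of 163891 at 24 h and 170647.5 at 0 h. Of all counts, 54.2% to 64.9% were miR-122, so this defining miRNA of hepatocytes was present in every liver. The median miRNA had 95.5 counts, and 36 of 143 miRNAs had a median below 50, where counting error limits the precision.

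At 0 h, 2 animals stood apart in miR-21. The libraries labelled EtOH.0hr.saline replicates 1 and 2 had 11.12 and 9.65 log2 CPM of miR-21 (the log2 of counts scaled to library size). The 34 other control animals of the series had at least 12.97, and the 12 AM21 animals had 6.59 to 7.76, so these libraries lay between controls and AM21 animals. Over the other 142 miRNAs their root mean square distance from their group mean was 0.23 and 0.19 on the log2 scale. The range over the 12 animals was 0.18 to 0.39. These 2 animals weigh heavily in that mean and are among the 12, so a departure that both share could stay hidden. Their place in the plot of miR-21 by animal is marked by open circles. The results that rest on them are given with and without them.

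**Figure D1:**
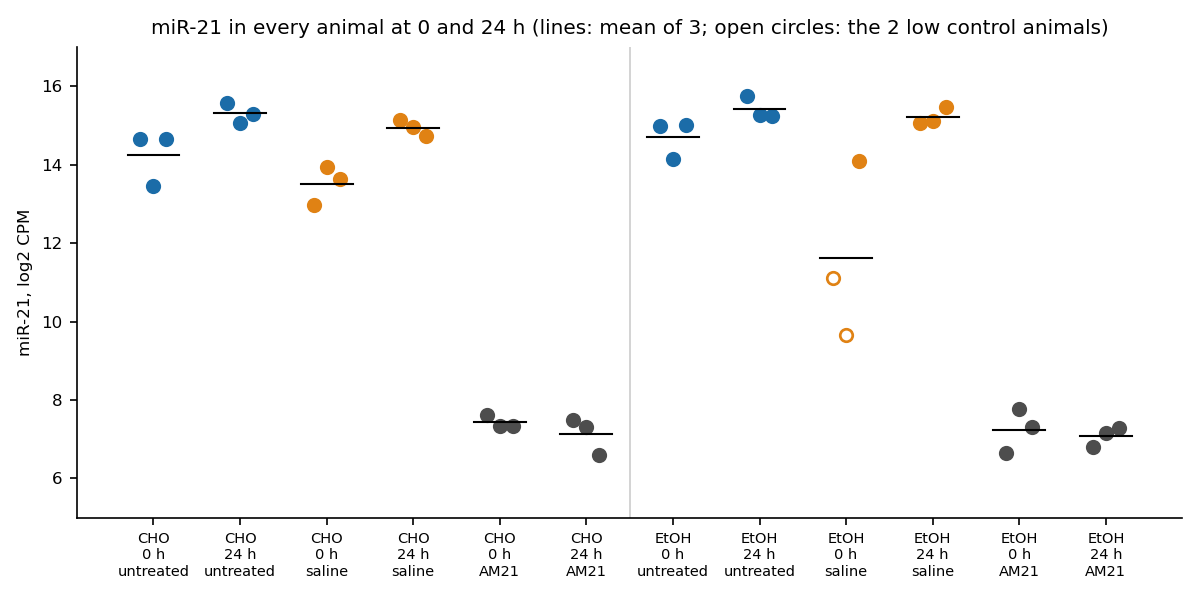
miR-21 (log2 CPM, vertical axis) in each animal of the 12 groups at 0 and 24 h, with blue points for untreated, orange for saline and grey for AM21 animals, and lines at the mean of 3. The open circles at 11.12 and 9.65 are the libraries labelled EtOH.0hr.saline replicates 1 and 2, below every other control animal shown and above every AM21 animal.

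At 24 h after PHx, 14 of 143 miRNAs (9.79%) had changed in EtOH-fed animals, by limma at a Benjamini-Hochberg adjusted p under 0.05. Of these, 8 (5.59%) were higher and 6 (4.20%) were lower than at 0 h. The higher ones were miR-19b of the miR-17/92 cluster, the p53-induced miR-34a, miR-30a, the myeloid miRNA miR-223, miR-340-3p, miR-345-5p, miR-674-5p and miR-3561-3p. The lower ones were miR-99a, miR-23a, miR-23b and miR-27b, the lymphocyte miRNA miR-150 and the mesenchymal miRNA miR-199a-3p. All 14 changes were moderate, between 0.39 and 0.89 on the log2 scale, or 1.31- to 1.85-fold. In bulk liver, fewer cells of a type and less RNA per cell cannot be told apart.

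Over all 143 miRNAs the median change was 0.06 with a median SE of 0.15, and 79 changes were positive and 64 negative. At an unadjusted p under 0.05 there were 43. In 10 miRNAs (6.99%) the 6 animals at 24 h did not overlap the 6 at 0 h, of which 6 were higher and 4 lower. Of the 10, 9 were among the 14 called, and the other was miR-21. The plot of the called miRNAs by animal shows the separation of the groups.

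**Figure D2:**
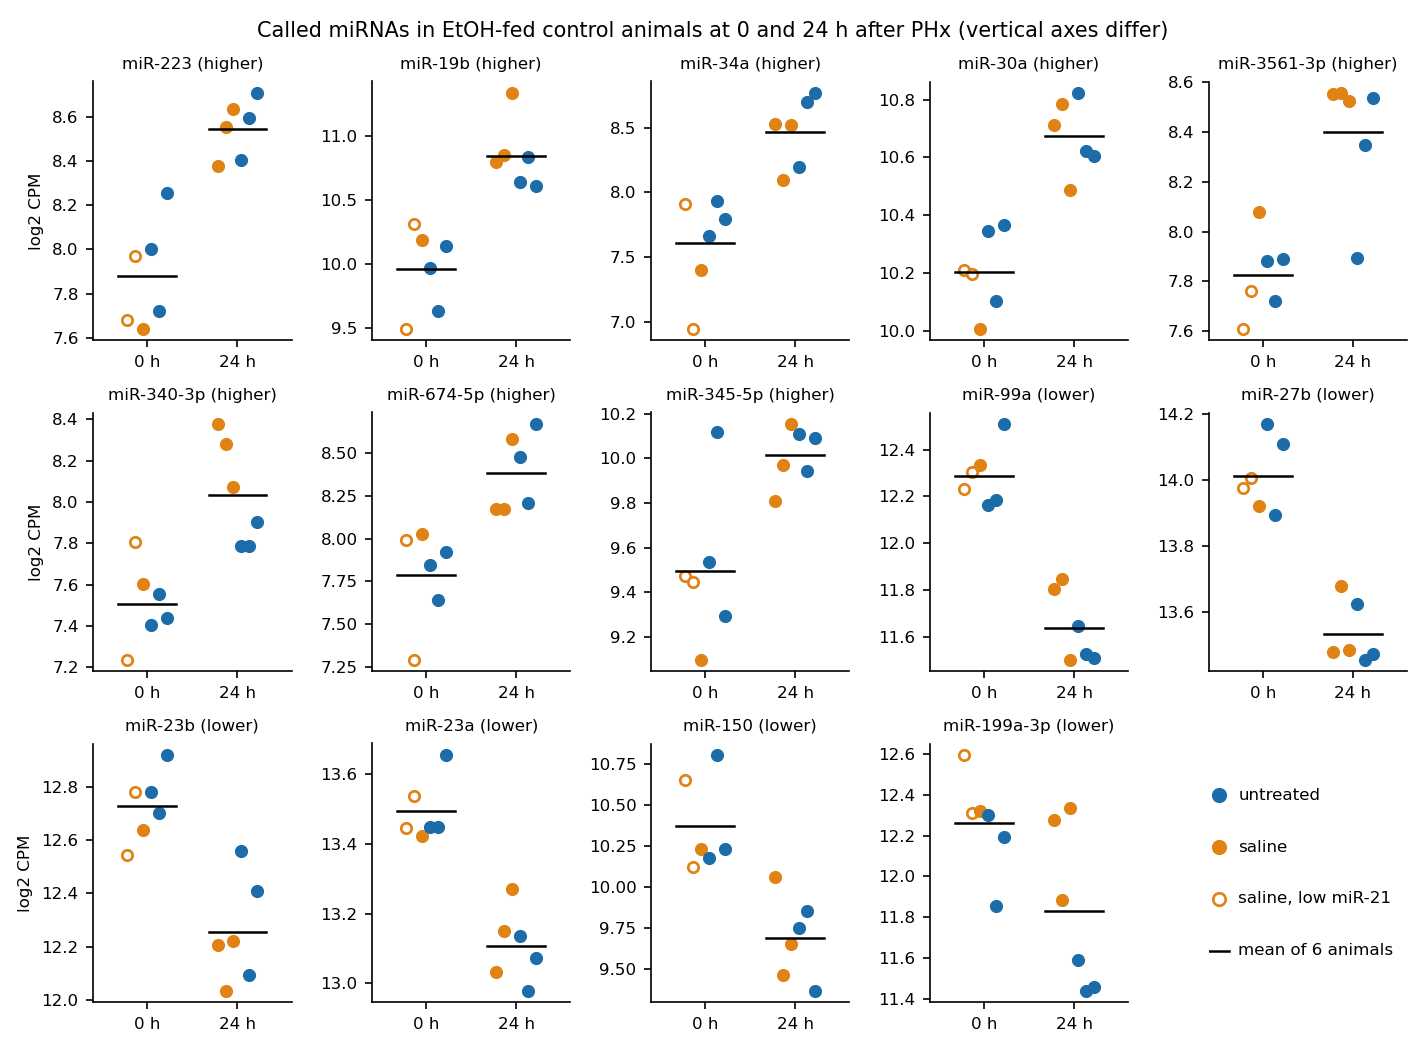
log2 CPM (vertical axes, which differ between panels) of the 14 called miRNAs in the 6 EtOH-fed control animals at 0 h and the 6 at 24 h, with blue points for untreated animals, orange for saline animals, open circles for the 2 with low miR-21, and lines at the mean of 6. The groups are apart in 9 panels and overlap for miR-3561-3p, miR-340-3p, miR-345-5p, miR-23b and miR-199a-3p.

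The largest called increase was that of miR-19b, a member of the miR-17/92 cluster, which is known to promote proliferation. At 0 h the 6 animals measured 9.49, 9.63, 9.97, 10.14, 10.19 and 10.31 log2 CPM, and at 24 h 10.61, 10.64, 10.80, 10.83, 10.85 and 11.33. Every 24 h animal lay above every 0 h animal. The change was 0.89 (SE 0.16) on the log2 scale, a 1.85-fold increase, with an adjusted p of 0.00454 by limma. Its seed partner miR-19a lay between 8.81 and 10.85 at 0 h, and its 24 h animals, between 10.54 and 11.93, overlapped them. The change of miR-19a was 0.76 (SE 0.34), about as large, with an adjusted p of 0.153.

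miR-34a, which p53 induces and which represses cyclins and CDKs of the cell cycle, rose alongside. The 0 h animals measured 6.95, 7.40, 7.67, 7.80, 7.91 and 7.94 log2 CPM and the 24 h animals 8.10, 8.20, 8.52, 8.53, 8.70 and 8.76. The lowest 24 h animal was above the highest at 0 h. The change was 0.86 (SE 0.17), 1.81-fold, with an adjusted p of 0.00536 by limma. This miRNA had a median of 46.5 counts, so counting error contributes to its spread. The other measured member of its family, miR-34c, changed by 0.12 (SE 0.14), which did not pass the test.

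miR-30a, of a family abundant in epithelial cells and hepatocytes, also rose. Its 0 h animals lay at 10.01, 10.10, 10.19, 10.21, 10.35 and 10.36 log2 CPM and its 24 h animals at 10.49, 10.61, 10.62, 10.71, 10.78 and 10.82. The groups were apart by a narrow gap. The increase was 0.47 (SE 0.10), 1.38-fold, with an adjusted p of 0.00902 by limma.

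The 2 called leukocyte miRNAs moved in opposite directions. miR-223, made by neutrophils and other myeloid cells, measured 7.64, 7.68, 7.72, 7.97, 8.0 and 8.26 log2 CPM at 0 h and 8.38, 8.40, 8.56, 8.59, 8.63 and 8.71 at 24 h. The groups did not overlap, and the increase was 0.67 (SE 0.12), 1.59-fold, with an adjusted p of 0.00454 by limma. miR-150, made by mature lymphocytes, measured 10.12, 10.17, 10.23, 10.23, 10.65 and 10.80 at 0 h and 9.37, 9.46, 9.65, 9.75, 9.85 and 10.06 at 24 h. Here all 24 h animals were below all 0 h animals. The decrease was −0.68 (SE 0.16), to 62.5% of the 0 h level, with an adjusted p of 0.0110 by limma.

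The other measured leukocyte miRNAs did not pass the test, with changes of 0.11 for miR-142-3p, −0.19 for miR-146a and −0.23 for miR-342-3p. Of the 5 measured leukocyte miRNAs, 1 was called higher and 1 lower, beside 8 (5.59%) and 6 (4.20%) of all 143, with a median change of −0.19 beside 0.06 over all 143. Their summed level was 12.48 to 12.86 log2 CPM at 0 h, and at 24 h 12.37 to 12.71 in saline and 12.21 to 12.49 in untreated animals. None of the 5 was at 0 in any animal. The median change is that of miR-146a, which also counts in the sum. The study lists both miR-146a and miR-150 for stellate and sinusoidal endothelial cells too, and miR-142-3p for sinusoidal endothelial cells. The part of blood or infiltrating cells in the changes of miR-223 and miR-150 was not tested.

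The smallest adjusted p of all was that of miR-99a, of a family that represses the growth regulators Mtor and Igf1r. At 0 h the animals measured 12.17, 12.19, 12.23, 12.30, 12.34 and 12.51 log2 CPM, and at 24 h 11.50, 11.51, 11.53, 11.65, 11.81 and 11.85. The groups were well apart. miR-99a fell by 0.65 on the log2 scale (SE 0.10), to 63.9% of its 0 h level, with an adjusted p of 0.00362 by limma. The changes of miR-100 and miR-99b were also below 0, at −0.36 (SE 0.12, adjusted p 0.0648) and −0.28 (SE 0.17, adjusted p 0.295), and did not pass the test. The miR-125 relatives that are often encoded beside them were at −0.53 (miR-125a-5p) and −0.12 (miR-125b-5p), again without a call. In this group of 5 miRNAs 1 was called lower, beside 4.20% of all 143, all 5 changes were negative and the median was −0.36.

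Of the 5 measured miRNAs of the miR-23/27/24 clusters, 3 fell, beside 6 of all 143 (4.20%). These clusters are known for roles in vessel growth, in lipid metabolism and in restraining TGF-β signals in liver. miR-27b measured 13.89, 13.92, 13.98, 14.01, 14.11 and 14.17 log2 CPM at 0 h and 13.46, 13.47, 13.48, 13.49, 13.62 and 13.68 at 24 h, with no overlap. Its change was −0.48 (SE 0.09), to 71.7% of the 0 h level, with an adjusted p of 0.00536 by limma. miR-23b measured 12.55, 12.64, 12.70, 12.78, 12.78 and 12.92 at 0 h and 12.04, 12.09, 12.21, 12.22, 12.41 and 12.56 at 24 h, where the highest 24 h animal reached just above the lowest 0 h animal. Its change was −0.47 (SE 0.10), with an adjusted p of 0.0101 by limma.

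The second cluster was called in 1 member. miR-23a measured 13.42, 13.45, 13.45, 13.45, 13.54 and 13.66 log2 CPM at 0 h and 12.98, 13.03, 13.07, 13.14, 13.15 and 13.27 at 24 h. The groups did not overlap, and the change was −0.39 (SE 0.09), the smallest among the 14, with an adjusted p of 0.0110 by limma. miR-27a, which shares its seed with miR-27b and its cluster with miR-23a, was at −0.14 (95% interval −0.33 to 0.06). miR-24, encoded in both clusters, was at 0.15 (95% interval −0.05 to 0.34). Both intervals include 0, and whether these members differed from their neighbours was not tested.

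miR-199a-3p, found mainly in mesenchymal cells such as stellate cells, was lower at 24 h. Its 0 h animals ranged from 11.85 to 12.59 log2 CPM with a median of 12.31, and its 24 h animals from 11.44 to 12.33 with a median of 11.74. The 3 untreated animals at 24 h were below the 0 h range, and the 3 saline animals, at 11.88, 12.28 and 12.33, lay within it. The change was −0.43 (SE 0.13) with an adjusted p of 0.0484 by limma, the weakest of the calls. It was no longer called in 7 of the 12 fits that left out 1 animal, those without 24 h untreated replicate 1, 2 or 3, 0 h untreated replicate 1 or 3, 0 h saline replicate 1 or 24 h saline replicate 2, with an adjusted p of up to 0.117. The other arm of this hairpin, miR-199a-5p, was at 0.10 (95% interval −0.13 to 0.34).

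Of the 4 measured mesenchymal miRNAs only miR-199a-3p was called, beside 14 of all 143 (9.79%), and the others were at 0.26 for miR-143, −0.32 for miR-145 and 0.10 for miR-199a-5p, with a median over the 4 of −0.11. Their summed level was 14.26 to 14.42 log2 CPM in saline and 14.09 to 14.35 in untreated animals at 0 h, and 13.87 to 14.22 and 13.75 to 14.02 at 24 h. The 24 h sums were below the 0 h sums within each treatment, and none of the 4 was at 0. The sums were mostly miR-145, with a mean of 13.79 log2 CPM in saline animals at 0 h, and they include miR-199a-3p itself, at 12.41. They therefore do not show a fall of all 4. The part of mesenchymal cells in the change of miR-199a-3p was not tested.

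The other 4 called miRNAs have less studied roles in liver, and 3 of them had low levels, with medians of 36.5 to 47.5 counts, while miR-345-5p had a median of 134, above the 95.5 of the middle miRNA. miR-3561-3p measured 7.61, 7.72, 7.76, 7.88, 7.89 and 8.08 log2 CPM at 0 h and 7.89, 8.35, 8.52, 8.54, 8.55 and 8.56 at 24 h. One 24 h animal, untreated replicate 1, lay within the 0 h range and the other 5 above it. The change was 0.58 (SE 0.13) with an adjusted p of 0.0105 by limma.

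miR-340-3p measured 7.24, 7.41, 7.44, 7.56, 7.60 and 7.81 log2 CPM at 0 h and 7.79, 7.79, 7.90, 8.07, 8.28 and 8.38 at 24 h. The 3 saline animals at 24 h were the highest, and 2 untreated animals lay just under the top of the 0 h range. The change was 0.53 (SE 0.12) with an adjusted p of 0.0105 by limma. The other arm of the hairpin, miR-340-5p, was at 0.05 (95% interval −0.36 to 0.46), and the difference between the arms was not tested.

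miR-674-5p had a median of 7.88 log2 CPM at 0 h (7.29 to 8.02) and of 8.34 at 24 h (8.17 to 8.67). The groups did not overlap. The change was 0.59 (SE 0.15) with an adjusted p of 0.0167 by limma, and 0.0539 without 24 h untreated replicate 3. miR-345-5p had a median of 9.46 at 0 h (9.10 to 10.12) and of 10.03 at 24 h (9.81 to 10.15). Its groups overlapped through 1 animal, 0 h untreated replicate 2, at 10.12. The change was 0.52 (SE 0.14) with an adjusted p of 0.0333 by limma. The call was lost in 9 of the 12 fits that left out 1 animal, with an adjusted p of up to 0.0776, and was kept without 0 h untreated replicate 2, 24 h untreated replicate 2 or 24 h saline replicate 1.

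miR-21, which is linked to hepatocyte proliferation and rises in liver after PHx, had the largest change of all, and it did not pass the test. In EtOH-fed rats, however, the authors reported earlier that inhibiting miR-21 restored regeneration. The 0 h animals measured 9.65, 11.12, 14.10, 14.16, 14.99 and 15.00 log2 CPM and the 24 h animals 15.07, 15.11, 15.25, 15.27, 15.48 and 15.76. All 24 h animals were above all 0 h animals, but the gap between the groups was small beside the spread at 0 h. The change was 2.15 (SE 0.67), with an adjusted p of 0.0605 by limma. Without the 2 low 0 h animals it was 0.85 with an adjusted p of 0.0461, so the size of the change rested on these animals. miR-21 was also called when scaled to the 100 highest miRNAs (adjusted p 0.0486 by limma). At the same change of 2.15 it was called in the fits on 24 control animals of both diets (0.0107) and on 18 EtOH-fed animals (0.00821). Without 0 h saline replicate 3 it was called at 2.54 (0.0195), a fit in which the 2 low libraries are the only saline animals at 0 h.

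Without both of those animals limma called 6 of 143 miRNAs (4.20%), and 30 had an unadjusted p under 0.05. The 6 were miR-21 and 5 of the 14, namely miR-99a, miR-19b, miR-34a, miR-223 and miR-27b. The other 9 of the 14 had an adjusted p of 0.0535 to 0.104. All 14 kept their sign, and their changes were 0.763 to 1.08 times those over all 12 animals, while the median SE was 1.24 times as large with 4 animals at 0 h in place of 6.

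The 4 other miRNAs next above the threshold were miR-350 at 0.33, miR-146b at 0.44 and miR-193 at 0.40, each with an adjusted p of 0.0605, and miR-17-5p at 0.56 with 0.0631. Each of the 4 was called in 2 of the 12 fits that left out 1 animal, miR-350 without 24 h untreated or saline replicate 2, miR-146b without 0 h saline replicate 1 or 24 h saline replicate 2, miR-193 without 24 h untreated replicate 1 or 0 h untreated replicate 2, and miR-17-5p without 24 h saline replicate 1 or 2. miR-122 was at 0.10 (95% interval −0.12 to 0.32), with 18.99 to 19.31 log2 CPM at 0 h and 19.08 to 19.46 at 24 h, and its groups overlapped.

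Whole families were compared by their counts and medians, beside the 9.79% called and the median of 0.06 over all 143 miRNAs, of which 43 had an unadjusted p under 0.05. Of the miR-17/92 cluster and its paralogs, which drive the G1 to S step, 7 of 12 listed members were measured. miR-19b alone was called, all 7 changes were above 0 and the median was 0.53, while 5 had an unadjusted p under 0.05. Under size factors by the median ratio (RLE) miR-25 turned to below 0, so that 6 of 7 were above it, with a median of 0.48. The 3 members with the seed AAAGUGC, miR-17-5p, miR-93 and miR-106b, were at 0.56, 0.53 and 0.34. miR-25 was at 0.00 and the probe shared by miR-20a and miR-20b-5p at 0.34.

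The let-7 family, which restrains growth genes such as Myc and Ras, had 8 measured members. No member was called, all 8 changes were below 0 under each of the 3 scalings tried, and the median was −0.11 with a range of −0.28 to −0.02. let-7b was the lowest, at −0.28, with an adjusted p of 0.0674, and it was called under RLE size factors and without 24 h untreated replicate 2. In the miR-15/16 family, which represses cyclins, 0 of 5 were called with a median of −0.01, and the largest change was 0.21 for miR-195.

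The miR-30 family had 1 of 5 called, miR-30a, with a median of 0.22 and a range from −0.28 for miR-30c to 0.47. In the antifibrotic miR-29 family 0 of 3 were called, with a median of 0.23 and miR-29b highest at 0.26. Without both animals of low miR-21 the median and miR-29b were at 0.05, and miR-29b was at −0.21 in untreated and 0.74 in saline animals. Of a list of liver miRNAs named for promoting growth, a role that may not hold for miR-21 in EtOH-fed rats, miR-21 and miR-221 were measured. Neither was called, with miR-221 at 0.35. Both arms of miR-532 were measured without a call, at −0.41 for miR-532-3p and 0.04 for miR-532-5p.

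The hepatocyte miRNAs miR-122, miR-192 and miR-194 had changes of −0.04 to 0.10, and none was called. The endothelial miRNA miR-126 was at −0.13 and was not called. The miR-34 family is described above, with a median of 0.49 over its 2 measured members. Without both animals of low miR-21 the medians were 0.40 for the miR-17/92 list, −0.08 for let-7, −0.39 for miR-23/27/24 and −0.38 for miR-99/100 with miR-125. The plot of changes by list sets these groups side by side.

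**Figure D3:**
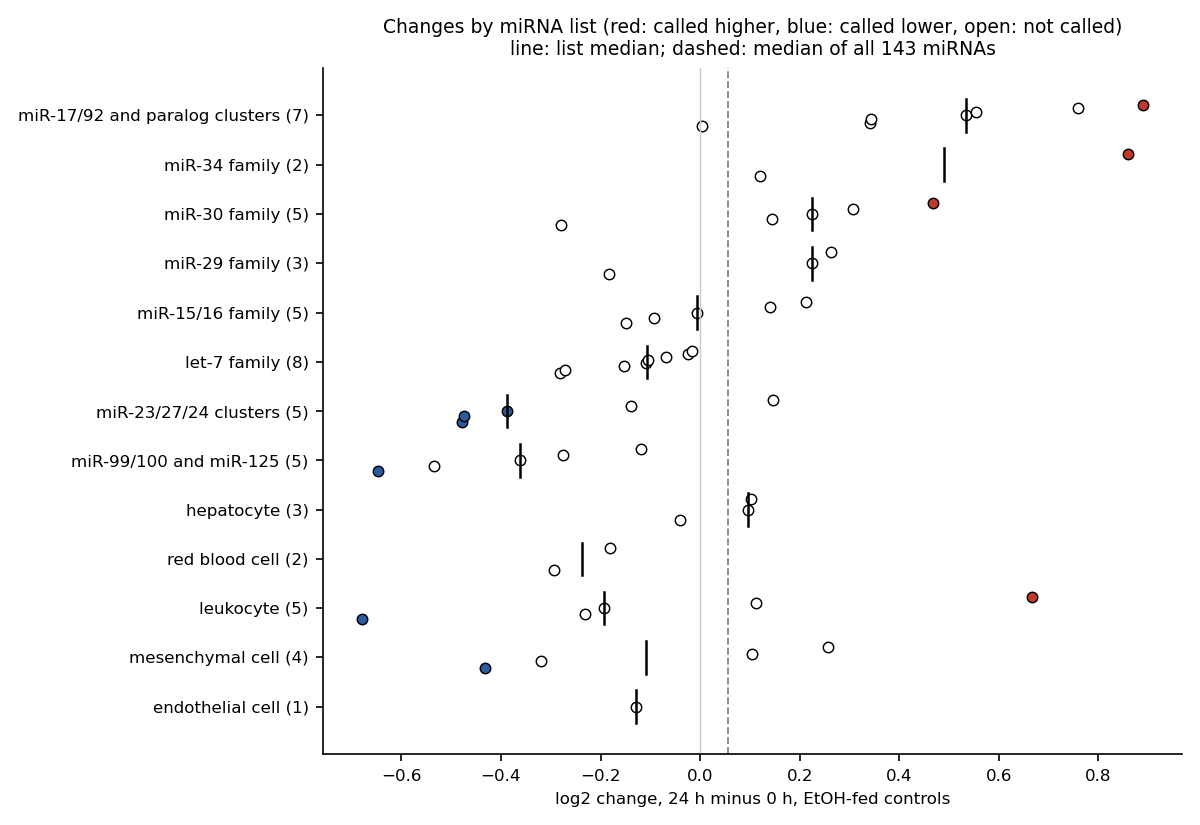
log2 change (24 h minus 0 h, EtOH-fed controls, horizontal axis) of each measured member of the listed families and cell type markers, with the number measured in brackets, short lines at list medians and a dashed line at the median of all 143 miRNAs (0.06). The miR-17/92 list sits to the right with a median of 0.53, and the miR-23/27/24 and miR-99/100 lists sit to the left with medians of −0.39 and −0.36.

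The changes were then taken within each treatment, in a fit with 1 mean for each of the 4 groups. In saline animals limma called 8 of 143 miRNAs (5.59%), of which 6 are among the 14, the others being miR-21 and miR-193. In untreated animals it called 0 (0%), with 29 at an unadjusted p under 0.05, beside 28 in saline animals. Without both animals of low miR-21 limma called 1 (0.699%) in saline animals, miR-451, with 15 at an unadjusted p under 0.05, and 0 (0%) in untreated animals with 30. There the 1 saline animal left at 0 h is assumed to vary like the other groups. miR-21 was at 3.60 in saline and 0.71 in untreated animals, and at 1.12 in saline animals without them. Fitted on their own 6 animals, both treatments had 0 calls. The 14 were chosen on these same animals, so their changes within a treatment are a description.

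The changes of miR-99a were −0.72 in untreated and −0.57 in saline animals, those of miR-19b 0.78 and 1.00, and those of miR-34a 0.75 and 0.96. miR-340-3p was at 0.36 and 0.69, and miR-199a-3p at −0.62 and −0.24, the widest relative gaps among the 14. The test of the difference, saline minus untreated, called 0 of 143 (0%), and its smallest adjusted p was 0.607. Before adjustment 11 had a p under 0.05, none of them among the 14. The median SE of a difference was 0.30, so differences of the size of most of these changes were not detectable.

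The largest difference was that of miR-21, 2.89 (SE 1.12, unadjusted p 0.0242), and it was 0.41 without both low animals. Next in size were the red blood cell miRNAs miR-451 and miR-144, encoded together and made by erythroid cells. miR-451 measured 9.01, 10.15 and 10.98 log2 CPM at 0 h and 8.50, 8.86 and 9.0 at 24 h in saline animals. In untreated animals it measured 9.36, 9.61 and 10.21 at 0 h and 10.11, 10.24 and 10.86 at 24 h. It was thus lowest in saline animals at 24 h, narrowly below every other animal of the 12. The change was −1.26 in saline and 0.68 in untreated animals, a difference of −1.94 (SE 0.58, adjusted p 0.607 by limma). The difference was called without 0 h saline replicate 1, the lowest saline animal at 0 h, at −2.46 with an adjusted p of 0.0215 by limma. Without both animals of low miR-21 it was −2.87. There the only saline animal left at 0 h was replicate 3, at 10.98 the highest of the 12 animals.

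Over both treatments miR-451 was at −0.29 (SE 0.39) and miR-144 at −0.18 (SE 0.40), and neither was called. Their summed level was 9.89 to 10.91 log2 CPM in saline and 11.68 to 12.09 in untreated animals at 24 h, and 10.49 to 12.36 at 0 h over all 6 animals. The sums of the treatments did not overlap at 24 h, and neither miRNA was at 0 in any animal. With miR-451 as a covariate limma called 23 miRNAs, which held all 14. Its part in other values was not tested.

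The same interval was compared in CHO-fed controls, which share no animal with the EtOH-fed ones, in a fit on 24 animals. In CHO-fed animals 37 of 143 miRNAs (25.9%) were called, 19 higher and 18 lower, and 54 had an unadjusted p under 0.05. In that fit EtOH-fed animals had 19 calls, 10 of them shared. Of the 14, 13 had the same sign in CHO-fed animals, beside 112 of all 143 (78.3%), and 7 were called, which is 7 of the 14 and 7 of the 37. Across the 143 miRNAs, which share libraries and scaling and are not independent, the changes of the diets had a Pearson r of 0.70 and a Spearman rho of 0.65.

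The 7 called in both diets were miR-99a, miR-19b, miR-27b, miR-34a, miR-30a, miR-23b and miR-150. miR-99a was at −0.61 in CHO-fed animals beside −0.65, miR-19b at 0.81 beside 0.89, and miR-27b at −0.52 beside −0.48. miR-223 was at 0.27 (SE 0.16) beside 0.67, miR-23a at −0.11 (SE 0.12) beside −0.39, and miR-3561-3p at −0.01 (SE 0.18) beside 0.58. The plot of changes by diet and treatment shows these pairs.

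The test of the difference between the diets' changes called 0 of 143 miRNAs (0%) by limma, the smallest adjusted p being 0.333. Before adjustment 16 had a p under 0.05. Among the 14 only miR-3561-3p had an unadjusted p under 0.05, with a difference of 0.59 (95% interval 0.07 to 1.10). Without both animals of low miR-21, 7 of 143 had an unadjusted p under 0.05, and that of miR-3561-3p was 0.0789. miR-21 itself was at 1.24 in CHO-fed animals, a difference of 0.91, or −0.37 without the low animals. The difference was 0.40 (−0.08 to 0.87) for miR-223 and −0.28 (−0.63 to 0.07) for miR-23a. For miR-19b it was 0.08 (−0.57 to 0.74), an interval wide enough to hold differences nearly as large as the change itself. For miR-99a it was −0.03 (−0.35 to 0.28).

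Other large differences lay outside the 14 and did not pass either. The smallest unadjusted p was that of miR-674-3p, named after its value was seen, with 0.22 in EtOH-fed and 0.87 in CHO-fed animals and a difference of −0.65 (95% interval −1.08 to −0.21). miR-193 had 0.40 and −0.11, a difference of 0.51 (0.15 to 0.87). miR-122 was at 0.10 in EtOH-fed and 0.55 in CHO-fed animals, where it was called, with a difference of −0.45 (−0.89 to −0.01).

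**Figure D4:**
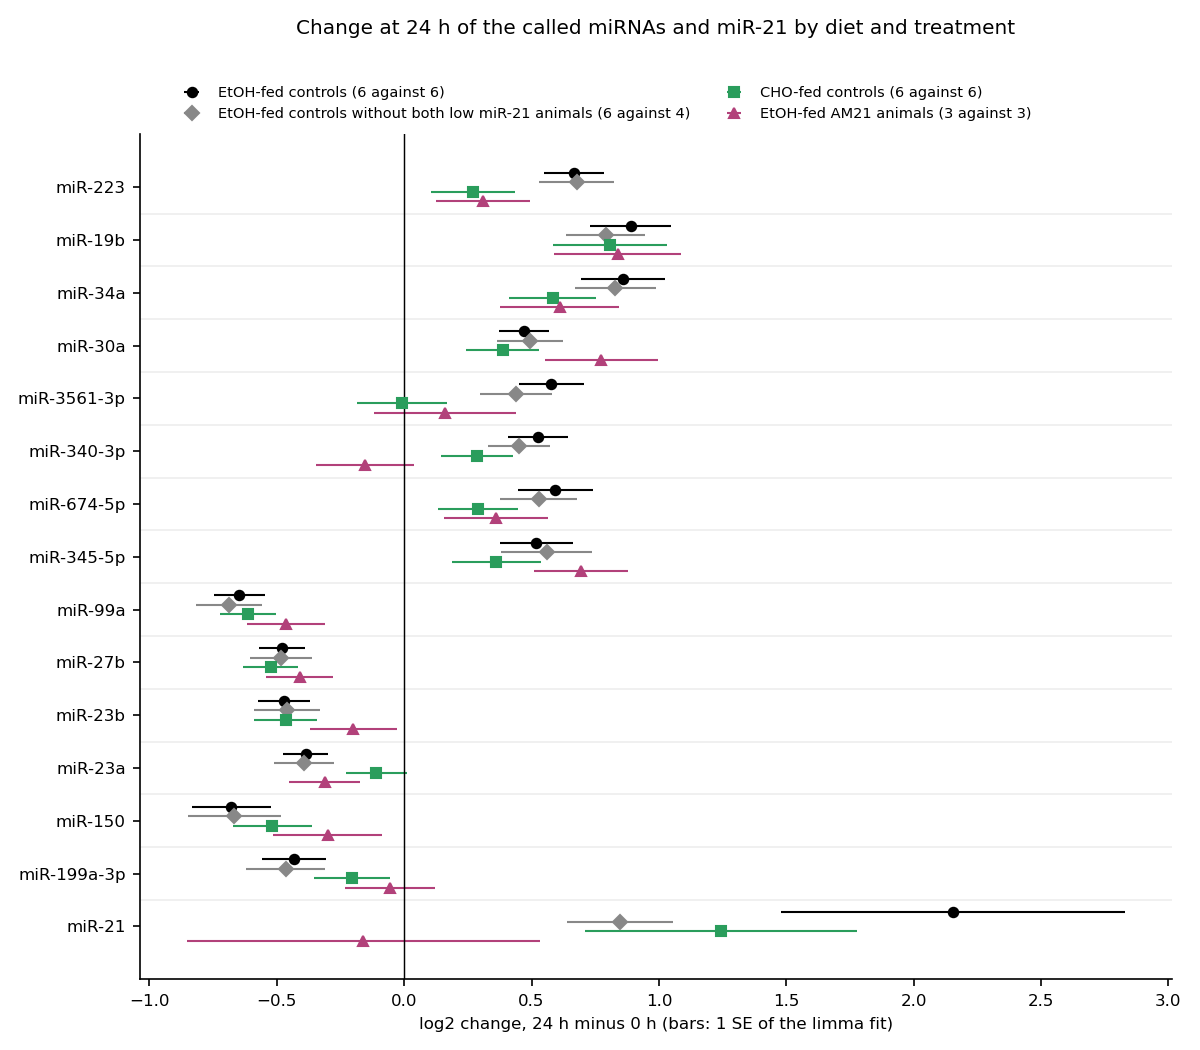
log2 change at 24 h (horizontal axis, bars of 1 SE from limma) of the 14 called miRNAs and miR-21 in EtOH-fed controls, the same without the 2 animals of low miR-21, CHO-fed controls and EtOH-fed AM21 animals. Without the low animals miR-21 moves from 2.15 to 0.85. The 14 keep their sign at 0.763 to 1.08 times their change over all animals, and 5 of them stay called.

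The AM21 animals gave the same interval in other EtOH-fed rats, 3 at 24 h against 3 at 0 h. In a fit on the 18 EtOH-fed animals limma called 0 of 143 miRNAs (0%) in them, and 23 had a p under 0.05 before adjustment. Of the 14, 13 had the same sign as in controls, beside 112 of all 143 (78.3%), and 7 had an unadjusted p under 0.05. These 7 were miR-19b at 0.84, miR-30a at 0.77, miR-345-5p at 0.70, miR-34a at 0.61, miR-23a at −0.31, miR-27b at −0.41 and miR-99a at −0.46. Across all 143 miRNAs Pearson's r was 0.61, or 0.72 without miR-21, and Spearman's rho was 0.71.

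The exception in sign was miR-340-3p. In AM21 animals it measured 7.47, 7.83 and 7.89 log2 CPM at 0 h and 7.24, 7.48 and 8.01 at 24 h, and the groups overlapped. Its change was −0.15 (SE 0.19) beside 0.53 in controls. The difference, −0.68 (95% interval −1.18 to −0.18), had the smallest unadjusted p, 0.0101, among the 14.

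Over all miRNAs the difference between AM21 and control animals was called in 0 of 143 (0%) by limma, the smallest adjusted p being 0.967, and 3 had a p under 0.05 before adjustment. miR-21 itself, the target of AM21, was at 6.65 to 7.76 log2 CPM at 0 h and 6.80 to 7.29 at 24 h in these animals, far below controls at both times. These were 23, 27 and 32 counts at 0 h and 19, 23 and 26 at 24 h. The lowest count of any miRNA in the same libraries was 13 to 24, so miR-21 lay near the floor and a further fall could hardly be measured. The change of miR-21 in AM21 animals was −0.16 (SE 0.69), so the difference of −2.31 from controls mostly restates the change in controls. It was called only without 0 h saline replicate 3, at −2.93 with an adjusted p of 0.000609 by limma. In that fit the 2 low libraries are the only saline animals at 0 h. Without the 2 low 0 h saline animals the difference was −1.08 with an adjusted p of 0.825.

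Untreated EtOH-fed animals were also sampled at 6 and 72 h, 3 at each time. The labels place these 6 animals in set 4 and the 0 and 24 h animals in sets 1 to 3, so a set cannot be told apart from these times. The levels are given without a test, and every time point shares the 0 h animals.

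The means of miR-34a were 7.80, 7.99, 8.55 and 9.10 log2 CPM at 0, 6, 24 and 72 h, and its 72 h animals, at 8.97 to 9.28, were above all others. miR-19b was at 9.91, 9.38, 10.70 and 10.50, so its 6 h animals, at 9.23 to 9.46, lay below the 0 h animals. miR-223 was at 7.99, 8.19, 8.57 and 8.56, about as high at 72 h as at 24 h.

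miR-99a had means of 12.29, 11.70, 11.56 and 11.80 at these times, and miR-27b of 14.06, 13.62, 13.52 and 13.48, both already low at 6 h. miR-23b was at 12.80, 12.47, 12.35 and 11.86, lowest at 72 h. miR-150 was at 10.40 and 10.63 at 0 and 6 h and at 9.66 and 9.62 at 24 and 72 h. miR-30a was at 10.27, 10.16, 10.68 and 10.21, and miR-199a-3p at 12.12, 11.92, 11.50 and 12.29, so the 24 h mean of each was the extreme one of the 4. The plot of untreated animals over time shows 8 of these courses.

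**Figure D5:**
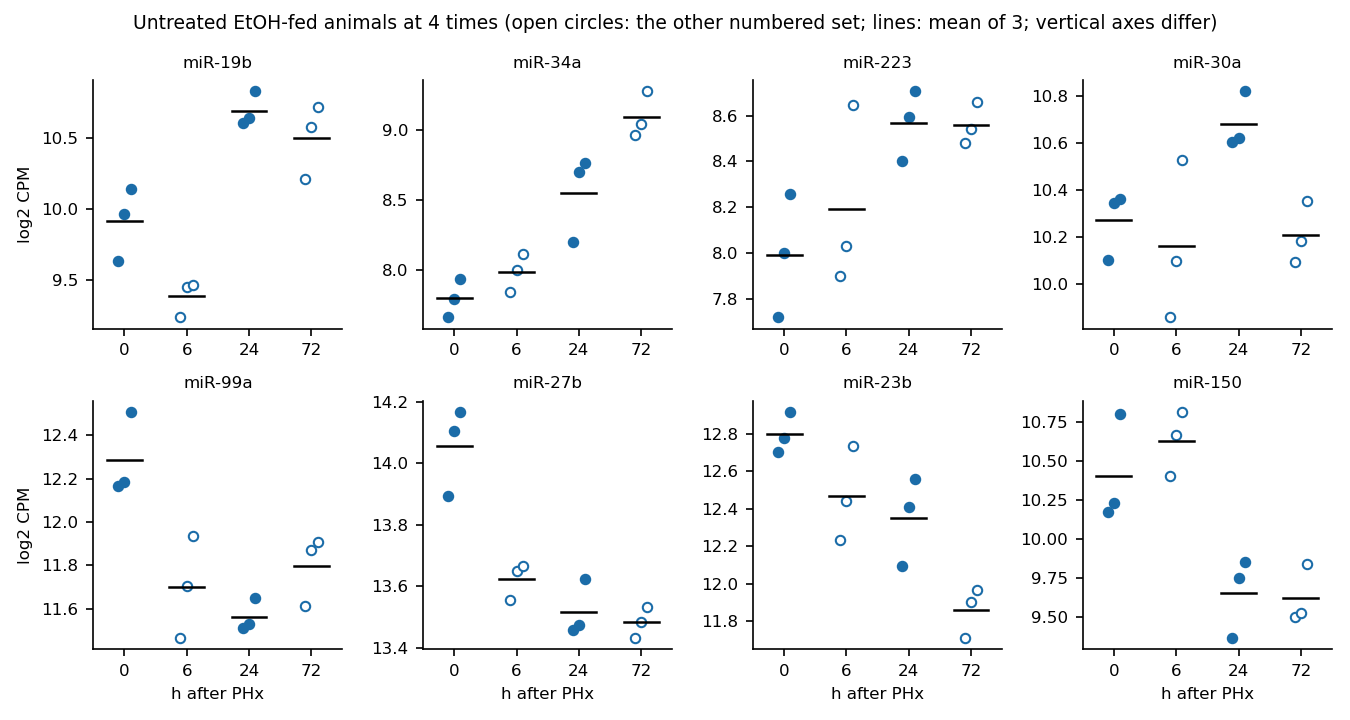
log2 CPM (vertical axes, which differ) of 8 called miRNAs in untreated EtOH-fed animals at 0, 6, 24 and 72 h after PHx (horizontal axis, spaced evenly), 3 animals a time with lines at the mean and open circles for the animals of set 4. miR-34a goes from a mean of 7.80 at 0 h to 9.10 at 72 h, while miR-30a has its highest mean, 10.68, at 24 h.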

How the data were processed

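For 143 miRNAs of a NanoString panel of 420, the deposited table holds log2 CPM in 48 rats, which the authors made from counts by TMM scaling in edgeR and voom in limma. The filter that left these miRNAs is not given in the sources used here. Whole counts were recovered from the values with a pseudocount of 0.5, every one within 0.001 of a whole number, and served for depth and for other scalings. TMM values are relative, so a change is a change in share of the measured miRNAs.

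These values entered limma 3.58.1 (lmFit and eBayes, R 4.3.3), with Benjamini-Hochberg adjustment over all 143 miRNAs. The 24 h against 0 h comparison used 12 animals with treatment as a covariate. The difference between diets used 24 animals, that between saline and untreated 12 in 4 groups, and that between AM21 and controls 18 in 6 groups. A count test in edgeR, planned in case the file held counts, did not apply. The main fit was tried on simulated counts with the same dispersion for every miRNA and no aberrant animals. This setting is simpler than these data, so it checks the code only. The p-values set a mean difference against the spread between animals, which are taken as independent. Figures were drawn with matplotlib 3.10.9.

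The comparison, the miRNA lists and the named miRNAs were chosen with earlier results of these data known. Named were all called miRNAs, the 5 next above the threshold, miR-21, miR-122 and the largest change of each list, and the 10 with the smallest adjusted p were given with all their animals. The cell type lists held hepatocyte, red blood cell, leukocyte, mesenchymal and endothelial miRNAs.

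The labels number animals in sets 1 to 3, each with 1 animal of every group compared, and do not explain what a set is. Deviations of same-numbered animals from their group means correlated at −0.17 to 0.42 over 18 pairs. They were above 0.1 for all 3 pairs in 1 of 6 pairs of groups, saline at 0 h with saline at 24 h (0.42, 0.11 and 0.33). Untreated animals at 0 h with those at 24 h gave 0.20, 0.29 and −0.06. The number was not treated as a pairing in the main fit. With so few pairs the check cannot decide whether 0 and 24 h animals of a number belong together, and the fit with the number as a block is given below. Among the alternatives were other scalings (RLE size factors, the 100 highest miRNAs), a pseudocount of 5, at least 50 counts in at least 3 animals, voom weights, the set number as a block, log10 total count or miR-451 as a covariate, each treatment alone, wider fits and leaving out each animal. Leaving out both animals of low miR-21 was chosen after seeing the data.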

Additional observations from a re-analysis of the deposited data

Results flagged for a closer look

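In 4 of 52 groups of 6 animals checked, 1 animal lay far from the others, with a gap past Dixon's critical value, and chance gives about 1 in 20. miR-19b at 24 h had a highest animal of 11.33 log2 CPM, saline replicate 3, with the next at 10.85. miR-3561-3p at 24 h had a lowest animal of 7.89, untreated replicate 1, with the next at 8.35. miR-195 at 0 h had a lowest animal of 8.53 with the next at 9.16. The endothelial miRNA miR-126 at 24 h had a highest animal of 15.21, with the next at 14.82.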

How the results depend on the processing

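The 14 calls at 24 h kept their sign under every alternative run. The count was 14 with a pseudocount of 5 and with voom weights, 13 after the filter on low counts, 16 and 19 in the fits on 18 and 24 animals, 21 with log10 total count as a covariate and 11 to 18 when 1 animal was left out. It was 0 in untreated animals alone and 0 in saline animals alone (29 and 30 at an unadjusted p under 0.05), where each group had 3 animals, and 6 without both animals of low miR-21. With miR-451 as a covariate it was 23. With the set number as a replicate block it was 23, which held all 14, and the block changed no other count. miR-21 was also called with the block, with an adjusted p of 0.0449. RLE size factors called 19, 8 higher and 11 lower, and scaling to the 100 highest miRNAs called 19, 13 higher and 6 lower, beside 8 and 6 as deposited. RLE moved the median change of all 143 miRNAs from 0.06 to 0.00.

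The difference between diets was 0 calls throughout, except 1 (let-7a) without CHO-fed 0 h saline replicate 3, a range of 0 to 1 over single omissions. The saline against untreated difference ranged from 0 to 1, with miR-451 called without 0 h saline replicate 1 and miR-21 without 0 h saline replicate 3, and was 1 without both animals of low miR-21. The AM21 difference ranged from 0 to 1, with miR-21 called without 0 h saline replicate 3. Of the named miRNAs, miR-29b turned to −0.21 in untreated animals alone, and miR-451 to 0.68 there and to 0.022 without 0 h saline replicate 3, with −0.50 to 0.022 over single omissions. The cause was not tested. Depth limits the 36 miRNAs with a median below 50 counts, among them miR-34a, miR-340-3p, miR-3561-3p and miR-674-5p.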

Other observations

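Lists of miRNAs known from the activation of hepatic stellate cells, the fibrogenic cells of liver, were set beside the others. Of 16 miRNAs that rise on activation, 14 were measured and 0 were called, beside 9.79% of all 143. The study counted all 16 as present in its data. An unadjusted p under 0.05 by limma was found for 7, beside 43 of 143, in both directions. Among those 7, let-7b (−0.28), let-7c (−0.27), miR-145 (−0.32) and miR-22 (−0.28) were lower at 24 h, and miR-31, miR-21 (2.15) and miR-132 (0.59) were higher. The median change of the list was 0.04, from −0.32 to 2.15, with 7 changes above and 7 below 0. Of 26 that fall on activation, 22 were measured, and 6 had an unadjusted p under 0.05. The 22 include miR-10a, taken here as miR-10a-5p, which the study counted as absent from its data. Of the 22, 1 (miR-30a) was called higher and 2 (miR-99a and miR-150) lower, beside 5.59% and 4.20% of all 143, with a median of −0.14. In CHO-fed animals the medians were 0.16 and 0.01, and in AM21 animals −0.02 and −0.19. In the second list miR-122, miR-192, miR-194, miR-126, miR-146a and miR-150 also stand in the hepatocyte, endothelial or leukocyte lists.

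The paralogs miR-181a and miR-181c, which share a seed and are named here after their values were seen, were each at −0.47 in EtOH-fed controls, with adjusted p of 0.0679 and 0.101 by limma. In CHO-fed animals they were at −0.61 and −0.63, both called.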
